A study of Mus musculus with 195 samples.

Results

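The 10 genes described here are Dppa2, Dppa3, Dppa4, Dppa5a, L1td1, Gdf3, Tdh, Fbxo15, Trap1a and Ly6a, chosen by name as genes associated with pluripotency, and they are 10 of the 19736 genes in the table of molecules per gene. Transcripts were counted with BATSeq, which reads the 3′ end of each polyadenylated transcript of a sorted cell and counts distinct random tags (unique molecular identifiers, UMIs), so that 1 UMI stands for 1 molecule whatever the length of the transcript. The cells belong to the 46C line, mouse embryonic stem cells (ESC) of E14tg2a origin with a Sox1-GFP reporter allele, and each culture was sorted for small cells in G1. ESC-2i cells were kept in serum-free medium with 10 ng/ml LIF, 1 µM of the Mek inhibitor PD0325901 and 3 µM of the Gsk3 inhibitor CHIR99021, and ESC-FCS cells in 10% fetal bovine serum with 10 ng/ml LIF. NSC are neural stem cells derived from the same line and kept with EGF and bFGF, after selection of GFP-positive cells. Each of these 3 cultures gave 48 cells in 2 library batches of 24, and no replicate culture is named. A further 48 ESC-FCS cells (control cells), 2 pools of 48 ESC-2i cells and 1 pool of 48 ESC-FCS cells were prepared apart from them and serve as a check. By the paper, the control cells and the ESC-FCS pool were technical controls of the same day, so they are not independent checks.

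The Dppa genes (developmental pluripotency associated) were named for their transcription in cells of the early embryo and in embryonic stem cells, and most of the other genes of the set share that pattern. They do not form 1 pathway. Among them are partner proteins of chromatin, RNA-binding proteins, a secreted ligand of the TGF-β family, a mitochondrial enzyme, a subunit of a ubiquitin ligase, a tumour antigen and a protein anchored on the cell surface.

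Cells with at least 1000 molecules on genes were used, 33 of ESC-2i, 33 of ESC-FCS, 41 of NSC and 42 of the control cells. ESC-2i cells were the deepest, with a median of 10864 molecules on genes, followed by ESC-FCS (6375), the control cells (4724) and NSC (3282), over a range of 1079 to 21050, and the pools held 179155 to 494799. The labels matched their markers. All 10 ESC markers (Nanog, Sox2, Zfp42 and others) had molecules in ESC-2i and in ESC-FCS, and their summed level was 36.6 and 32.4 molecules per 10000 molecules on genes, against 1.32 in NSC. The 10 NSC markers summed to 47.3 per 10000 in NSC, 0.380 in ESC-2i and 1.01 in ESC-FCS. Of 8 primitive endoderm markers 5 were among the genes counted, Gata6 and Sox17 had no molecule in any library, and the list summed to 0.733 in ESC-2i cells and 0.573 in ESC-FCS cells. In the ESC-2i pools this list stood at 2.75, with 263 of its 268 molecules from Lama1, a laminin chain, and in the ESC-FCS pool at 0.279. Neuron markers stood at 2.72 in the ESC-2i pools, with 225 of 265 molecules from the tubulin Tubb3, against 0.190 in ESC-2i cells and 0.391 in the ESC-FCS pool. The part of these markers in the differences between pools and cells was not tested.

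Each level below is the count of a gene for every 10000 molecules on genes, summed over all cells of a culture, with exact Poisson intervals at 95% that cover counting error only. Since each culture is 1 culture, cultures were compared by size without a p-value. A gene was set against the other genes by a fixed rule of at least 2-fold with at least 20 molecules over both cultures, with 3 molecules standing for a culture at 0. Of 9 genes of the set with enough molecules, 4 differed at least 2-fold between ESC-2i and ESC-FCS, against 22.6% of all 5007 genes assessed. Tdh and Ly6a were higher in ESC-2i (14.5% of all genes) and Dppa2 and Dppa4 were higher in ESC-FCS (8.17% of all genes). The median log2 difference over the 9 genes was -0.06, and it was 0.07 over all genes. Scaled to spike-in molecules in place of molecules on genes, the median of all genes was -0.98, with 3.44% of genes at least 2-fold higher in ESC-2i and 49.4% higher in ESC-FCS. In that scaling 6 genes of the set passed the rule, with Dppa2 and Dppa4 still lower and Ly6a still higher in ESC-2i, and with Dppa3, Gdf3 and Trap1a lower as well, at log2 differences of -2.03, -1.11 and -1.14. Tdh was level, and the log2 differences of L1td1 and Fbxo15 turned from 0.21 and 0.60 to -0.83 and -0.45. Against NSC, 7 of 7 assessed genes were higher in ESC-2i, where 24.3% of all genes were higher and 43.6% differed in either direction. All 7 assessed between ESC-FCS and NSC were higher in ESC-FCS, where 18.4% of all genes were higher and 39.3% differed in either direction. In both comparisons the assessed genes of the set had 0 molecules in NSC and reached the minimum through the ESC alone. Any gene with 20 molecules in either ESC culture and none in NSC passes the rule. The counts of 7 of 7 could therefore not have come out otherwise.

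**Figure D1:**
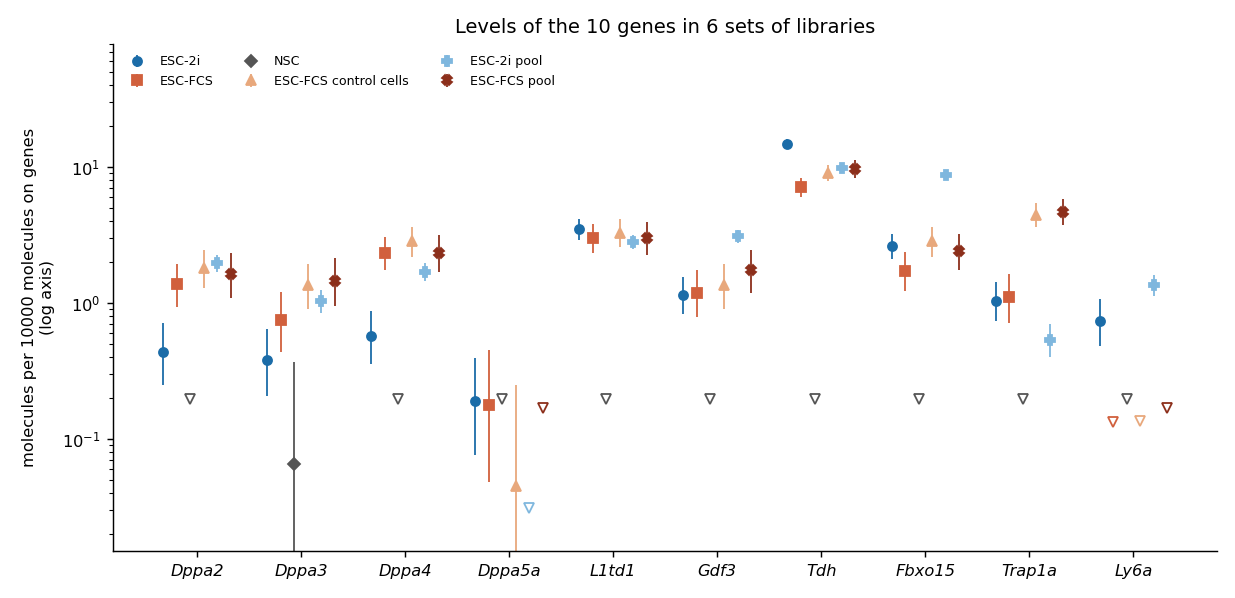
Levels of the 10 genes (x axis) in molecules per 10000 molecules on genes (y axis, log scale) in the 3 cultures, the control cells and the pools. Points are pooled levels with exact 95% Poisson intervals, and open triangles mark the limit of 3 molecules where none was seen. Tdh is the highest gene in ESC-2i at 14.6, and 9 of the 10 genes stand at the limit in NSC.

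Dppa2 and Dppa4 code for nuclear proteins with a SAP domain that act together on chromatin, and the genes lie next to each other on the plus strand of chromosome 16 (GRCm38, 48303908 to 48319723 for Dppa2, 48283733 to 48294237 for Dppa4). Both were lower in ESC-2i cells than in ESC-FCS cells. A Dppa4 molecule was seen in 16 of 33 ESC-2i cells (48.5%), with 0 to 3 molecules per cell and a median of 0. In ESC-FCS it was seen in 23 of 33 cells (69.7%), with 0 to 5 molecules and a median of 1. The ranges of the cells overlapped, and more ESC-FCS cells held the transcript although they were the shallower libraries.

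The pooled level of Dppa4 was 0.570 per 10000 (interval 0.353 to 0.871) in ESC-2i and 2.34 (1.75 to 3.06) in ESC-FCS, which is 4.10-fold lower in ESC-2i (exact interval of the ratio 2.43 to 7.16). ESC-2i was lower in both library batches. The levels were 0.688 (0.355 to 1.20) against 3.22 (2.32 to 4.36) in the first and 0.464 (0.212 to 0.881) against 1.14 (0.57 to 2.04) in the second. The second batch rests on 9 and 11 molecules, and its intervals overlap. The ESC-FCS batches also differed from each other beyond counting error. In the control cells the level was 2.82 (2.17 to 3.61), close to that of the ESC-FCS cells. ESC-2i cells were thus below both sets of single cells grown with serum.

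Dppa2 had 16 molecules in 10 of 33 ESC-2i cells, with 0 to 3 per cell, and 31 molecules in 18 of 33 ESC-FCS cells, with 0 to 4 per cell. Its level was 0.434 (0.248 to 0.705) in ESC-2i and 1.37 (0.929 to 1.94) in ESC-FCS, 3.15-fold lower in ESC-2i (1.67 to 6.16), and 1.79 (1.28 to 2.44) in the control cells. The order of the cultures was that of Dppa4, and the cells of the cultures again overlapped. Neither gene had a molecule in any of 41 NSC cells, which allows a level of up to 0.198 and a share of cells with a UMI of up to 7.32%. Such a limit does not bound the share of cells that express a gene.

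In the pools the differences were under 2-fold. Dppa2 was at 1.67 and 2.24 in the pair of ESC-2i pools and at 1.62 (1.08 to 2.32) in the ESC-FCS pool, so it was not lower in ESC-2i there. Dppa4 was lower in both ESC-2i pools, at 1.50 and 1.86 against 2.34 (1.69 to 3.17), a ratio of 0.718 with an interval of 0.509 to 1.03 that includes 1. Both were higher in the ESC-2i pools than in the ESC-2i cells, Dppa2 4.51-fold (2.71 to 8.06) and Dppa4 2.95-fold (1.87 to 4.90). In that comparison of pools with cells, 5 of the 9 genes of the set and 53.8% of all genes differed at least 2-fold.

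The 3′ ends of the neighbours differed in form. Nearly all Dppa4 molecules ended at 1 site 9 nt before the annotated end of the transcript, with 100% of 21 molecules in ESC-2i and 88.7% of 53 in ESC-FCS (exact interval 77.0 to 95.7). Dppa2 molecules were spread over several sites of the 3′ UTR, and the most used site held 26.7% of 191 molecules in the ESC-2i pools (20.6 to 33.6). The median share of the most used site over all genes with at least 20 molecules was 88.1% in ESC-2i and 83.6% in the ESC-2i pools. The last 30 bases before the Dppa4 site and before the pair of most used Dppa2 sites are shown because none holds either of the polyadenylation signals AATAAA and ATTAAA, which 51.3% and 13.4% of 21899 protein-coding genes hold in the last 30 bases of their longest transcript. Only the strand of the transcript was searched, here and below. The sequences are from the GENCODE M21 transcripts on GRCm38.
Dppa4, chr16:48294199-48294228, plus strand: gtttgttttctgctgttgtaaaatattaca
Dppa2, chr16:48319482-48319511, plus strand: tgtgccttatgaattgatgctattacatat
Dppa2, chr16:48319525-48319554, plus strand: gtttttatatatccaagacagggtcttttg

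Dppa3 (Stella) codes for a small protein of oocytes, early embryos and germ cells that binds Uhrf1 and affects DNA methylation, and it lies on the plus strand of chromosome 6 (122626410 to 122630272). Its main polyadenylation site was 4 nt before the annotated end. The last 30 bases are shown because molecules at this site and molecules farther away behaved differently, and the capitals mark the signal AATAAA.
Dppa3, chr6:122630239-122630268, plus strand: tttccagaaatttgtAATAAAagcattttt

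In ESC-2i, 29 of 33 cells had no Dppa3 molecule, 3 cells had 1 and 1 cell, in well H5, had 11. The 11 molecules of that cell all lay within 5000 nt of the gene and were read 12.0 times each on average. The other 3 molecules lay 14.4 to 14.5 kb downstream of the gene, where the authors' window of 20 kb still assigned them to it, and each was a single read. Within 5000 nt of the gene, all Dppa3 molecules counted in the 33 ESC-2i cells therefore lay in 1 cell.

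The ESC-FCS cells had 17 Dppa3 molecules, from 0 to 4 per cell with a median of 0. Of these, 12 lay within 5000 nt of the gene, in 7 cells and with 19.4 reads per molecule, and 5 were single reads far downstream. The control cells had 30 molecules in 12 of 42 cells, up to 8 in a cell and none of them far downstream. In ESC cultured with serum the transcript was spread over several cells, at up to 4.29 per 10000 in an ESC-FCS cell and 7.98 in a control cell, while the ESC-2i cell of well H5 was at 14.6.

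The single Dppa3 molecule of the 41 NSC cells lay 14.5 kb downstream too, so NSC had no molecule within 5000 nt. Over all genes, the share of molecules over 5000 nt downstream of their gene was 0.672% in the control cells, 1.27% in ESC-2i, 1.63% in NSC and 1.50% in ESC-FCS. For Dppa3 the share was 21.4% in ESC-2i and 29.4% in ESC-FCS. Such molecules were rare for the other genes of the set, with 1 of Dppa4 in ESC-FCS and 1 of Trap1a in the control cells.

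Pooled over cells, Dppa3 was at 0.380 (0.208 to 0.638) in ESC-2i and 0.750 (0.437 to 1.20) in ESC-FCS, a ratio of 0.51 with an interval of 0.23 to 1.09 that includes 1. Without the cell of well H5, Dppa3 was at 0.0831 in ESC-2i, with 3 molecules, and passed the 2-fold rule as lower. Those 3 molecules and 5 of the 17 in ESC-FCS lay far downstream of the gene. Within 5000 nt, all ESC-2i molecules lay in the cell left out. The 12 such molecules of ESC-FCS alone were too few to be assessed by the rule. The pair of ESC-2i pools differed from each other, with 1.69 (1.34 to 2.10) and 0.384 (0.231 to 0.600), and the ESC-FCS pool at 1.45 (0.948 to 2.13) lay between them. Within the control cells the batches differed as well, with 27 molecules in the first batch and 3 in the second.

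The test of Brennecke and colleagues, which asks whether the variance between cells exceeds the technical noise of the spike-in transcripts by a set margin, called Dppa3 variable in ESC-2i. Its squared coefficient of variation (CV2) was 23.8 against a technical value of 2.21 (adjusted p = 1.72e-44 by the chi-square test of Brennecke and colleagues). The normalised mean of Dppa3 was 0.548, just over the limit of 0.5 for testing. Without the cell of well H5 the mean was 0.0858 and Dppa3 could not be tested, with a CV2 of 10.4, and without the molecules far downstream the gene fell below the limit too.

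The cell of well H5 had 7519 molecules on genes, of which 4.51% were mitochondrial (0.473 to 4.89% in ESC-2i cells). It was also the ESC-2i cell with the most Fbxo15, with 14 molecules or 18.6 per 10000. It had no molecule of Dppa2, Dppa4, Gdf3, Trap1a or Ly6a. Its summed ESC markers were at 53.2 per 10000, the highest of 33 cells, and no marker molecule of primitive endoderm, epiblast and mesoderm or trophectoderm was seen. Neural stem cell markers and astrocyte and oligodendrocyte markers had 1 molecule each.

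**Figure D2:**
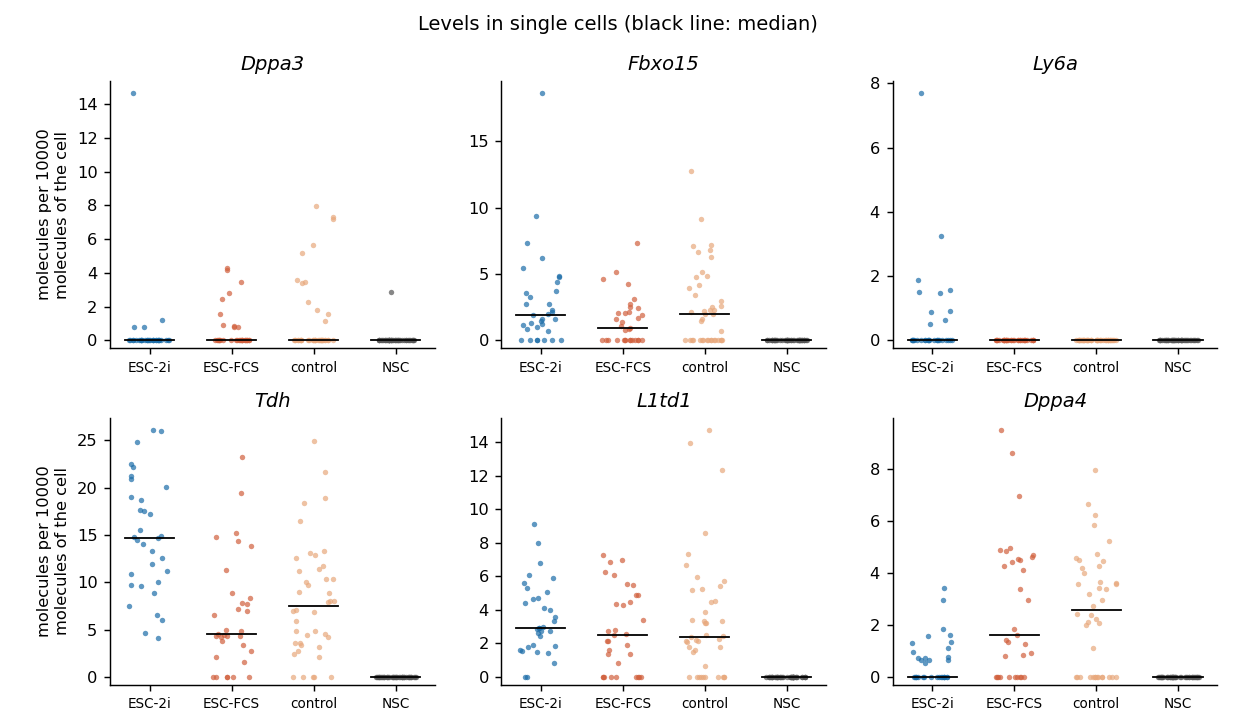
Levels of 6 genes in single cells (y axis, molecules per 10000 molecules of the cell) of ESC-2i, ESC-FCS, the ESC-FCS control cells and NSC (x axis). Each point is 1 cell and the black line is the median. In ESC-2i, Dppa3 stands at 14.6 in 1 cell, Fbxo15 at 18.6 in the same cell and Ly6a at 7.69 in another.

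Dppa5a (Esg1), on the minus strand of chromosome 9 (78367052 to 78368177), codes for a protein with an RNA-binding KH domain. It was hardly seen. There were 7 molecules in 6 of 33 ESC-2i cells, 4 molecules in 4 of 33 ESC-FCS cells and 1 molecule in 1 of 42 control cells, with 1.00 to 1.43 reads per molecule against 5.12 or more for Dppa2 in the same sets. The pools had none, which allows up to 0.0308 per 10000 in ESC-2i and 0.167 in ESC-FCS, and NSC had none either. The annotation holds the close copies Dppa5b and Dppa5c, which are not among the genes counted, and the authors removed reads that aligned to several places, so the level of Dppa5a is uncertain.

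L1td1, which codes for an RNA-binding protein derived from the first open reading frame of a LINE-1 element, lies on the plus strand of chromosome 4 (98726734 to 98738480). It was at like levels in every set of ESC. A molecule was seen in 31 of 33 ESC-2i cells (93.9%), with 0 to 12 per cell and a median of 3, and in 24 of 33 ESC-FCS cells (72.7%), with 0 to 9 and a median of 2. With every cell thinned to 2000 molecules the shares were 49.4% and 42.5%.

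The level of L1td1 was 3.47 (2.90 to 4.13) in ESC-2i, against 3.00 (2.33 to 3.80) for ESC-FCS cells and 3.27 (2.57 to 4.12) for the control cells. The ESC-2i pools were at 2.82 and 2.81 and the ESC-FCS pool at 3.01 (2.26 to 3.93). The ratio of ESC-2i to ESC-FCS was 1.16 in the cells (0.857 to 1.58) and 0.933 in the pools (0.695 to 1.27). Among the genes of the set it was the one whose levels moved least between cells and pools. In NSC it was at 0, and its level in ESC-2i was at least 17.6-fold higher. The CV2 of L1td1 was 0.452 in ESC-2i against 0.359 from technical noise, and the gene was not called variable in any culture. It ended at 1 site 4 nt before the annotated end, with 95.3% of 128 molecules in ESC-2i (90.1 to 98.3), and the sequence is shown as an example of a single site with the signal ATTAAA in capitals.
L1td1, chr4:98738447-98738476, plus strand: attacatATTAAAgcttgaagtttgcattt

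Gdf3 codes for a secreted ligand of the TGF-β family and lies on the minus strand of chromosome 6 (122605403 to 122610087), near Dppa3. A molecule was seen in 21 of 33 ESC-2i cells, with 0 to 6 per cell and a median of 1, in 13 of 33 ESC-FCS cells, with 0 to 4 and a median of 0, and in none of 41 NSC cells. With cells thinned to 2000 molecules the shares were 18.7% and 18.8%, close to each other at equal depth. The level was 1.14 (0.822 to 1.54) in ESC-2i, and both sets grown with serum were close to it, ESC-FCS at 1.19 (0.785 to 1.73) and the control cells at 1.34 (0.907 to 1.92). The ratio of ESC-2i to ESC-FCS was 0.957 (0.577 to 1.61).

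In the pools Gdf3 was at 3.73 and 2.45 for ESC-2i and at 1.73 (1.18 to 2.46) for ESC-FCS, a ratio of 1.78 (1.23 to 2.67). The ESC-2i pools were 2.70-fold above the ESC-2i cells (1.95 to 3.82). In NSC Gdf3 was at 0, and its level was at least 5.77-fold higher in ESC-2i and at least 6.03-fold higher in ESC-FCS.

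The main site of Gdf3 was 846 nt before the annotated end, with 81.0% of 42 molecules in ESC-2i (65.9 to 91.4) and 66.7% of 27 in ESC-FCS (46.0 to 83.5). A second site 362 nt before the end held 16.7% of 300 molecules in the ESC-2i pools (12.6 to 21.4) and another, 10 nt before the end, held 5.00% (2.83 to 8.11). Most Gdf3 transcripts thus ended well before the annotated end, in all sets of ESC. The main and the second site are shown because the first holds the signal AATAAA, in capitals, and the second holds neither signal.
Gdf3, chr6:122606249-122606278, minus strand: agggtaaatcctttAATAAAactaccaccc
Gdf3, chr6:122605765-122605794, minus strand: aatataacatagaaaaatttacgtgagctt

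Of 13 genes listed for the Nodal and Gdf3 pathway, 12 were among the genes counted and 6 could be assessed between ESC-2i and ESC-FCS cells, with 1 higher in each culture. In the pools 9 could be assessed, with 4 higher in ESC-2i and 2 higher in ESC-FCS. Nodal, a related ligand, was at 1.44 in ESC-2i and 0.485 in ESC-FCS cells and at 3.60 and 0.893 in the pools. Lefty1, an extracellular inhibitor of Nodal, was at 0 in ESC-2i and 4.72 in ESC-FCS cells, and at 0.729 and 1.67 in the pools. The co-receptor Tdgf1 was at 5.24 and 5.03 in the cells and Smad4, the shared signal transducer, at 0.733 and 0.794.

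Tdh codes for threonine dehydrogenase, the mitochondrial enzyme that opens the breakdown of threonine to glycine and acetyl-CoA, a route on which mouse ESC depend, and it lies on the minus strand of chromosome 14 (63492347 to 63509092). It was the most abundant gene of the set in each set of ESC. Each of the 33 ESC-2i cells held it, with 3 to 32 molecules per cell and a median of 14. In ESC-FCS 27 of 33 cells held it (81.8%), with 0 to 24 and a median of 3, and in the control cells 37 of 42 (88.1%), with 0 to 24 and a median of 4. The cells of the cultures overlapped, but no ESC-2i cell was without the transcript, and with cells thinned to 2000 molecules the shares were 92.1%, 65.1% and 75.4%.

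Within a cell Tdh was at 4.09 to 26.1 per 10000 in ESC-2i, with a median of 14.6, and at 0 to 23.3 in ESC-FCS, with a median of 4.53. Pooled, the level was 14.6 (13.4 to 15.9) in ESC-2i and 7.06 (6.01 to 8.24) in ESC-FCS, 2.07-fold higher in ESC-2i (1.73 to 2.49). In the first library batch the levels were 15.5 and 6.30, and in the second 13.9 and 8.09, which is under 2-fold. The control cells were at 9.01 (7.81 to 10.3).

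The pools again gave another picture. Tdh was at 10.4 and 9.24 in the ESC-2i pools and at 9.60 (8.22 to 11.1) in the ESC-FCS pool, a ratio of 1.02 (0.870 to 1.21). Scaled to spike-in molecules, the difference in Tdh between ESC-2i and ESC-FCS cells was 0.00 on the log2 scale, above the median gene at -0.98. NSC held no Tdh molecule, and the gene was at least 74.1-fold higher in ESC-2i and at least 35.7-fold higher in ESC-FCS.

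**Figure D3:**
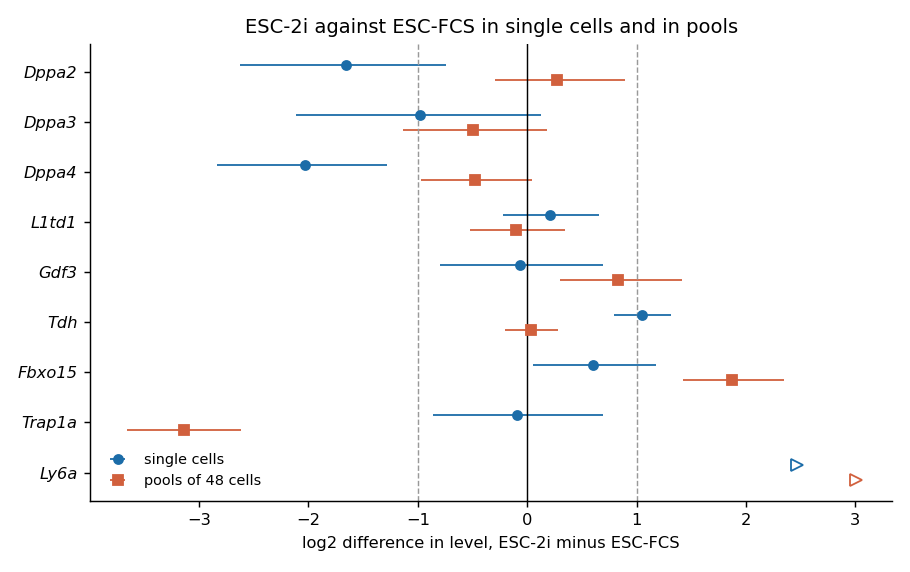
Log2 difference in level between ESC-2i and ESC-FCS (x axis, above 0 for higher in ESC-2i) of 9 genes (y axis) in single cells and in pools of 48 cells, with exact 95% intervals. Dashed lines mark 2-fold and open triangles are lower bounds against 0 molecules. Ly6a is past 2-fold in both, with bounds of 2.47 and 3.01, while Dppa2, Dppa4 and Tdh are past it in the cells alone and Fbxo15 and Trap1a in the pools alone.

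Most Tdh molecules ended at a pair of sites, 114 nt and 2 nt before the annotated end. The site 114 nt before the end held 64.2% of 539 molecules in ESC-2i cells (60.0 to 68.2), 53.8% of 160 in ESC-FCS cells (45.7 to 61.7) and 52.2% of 201 in the control cells (45.1 to 59.3). In the pools it held 55.2% (52.0 to 58.4) in ESC-2i and 47.1% (39.5 to 54.8) in ESC-FCS. Its share was the higher one in ESC-2i in cells and in pools, and the shift from cells to pools of the same culture was of like size. Both sites were seen within the same cell in 32 of 33 ESC-2i cells, 20 of 33 ESC-FCS cells and 26 of 42 control cells. The sequences of both sites are shown because each carries its own signal ATTAAA, in capitals.
Tdh, chr14:63492461-63492490, minus strand: atttgtatttaATTAAAttcaatttaagta
Tdh, chr14:63492349-63492378, minus strand: ggaatactaATTAAAaaaacgatcgcttgc

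**Figure D4:**
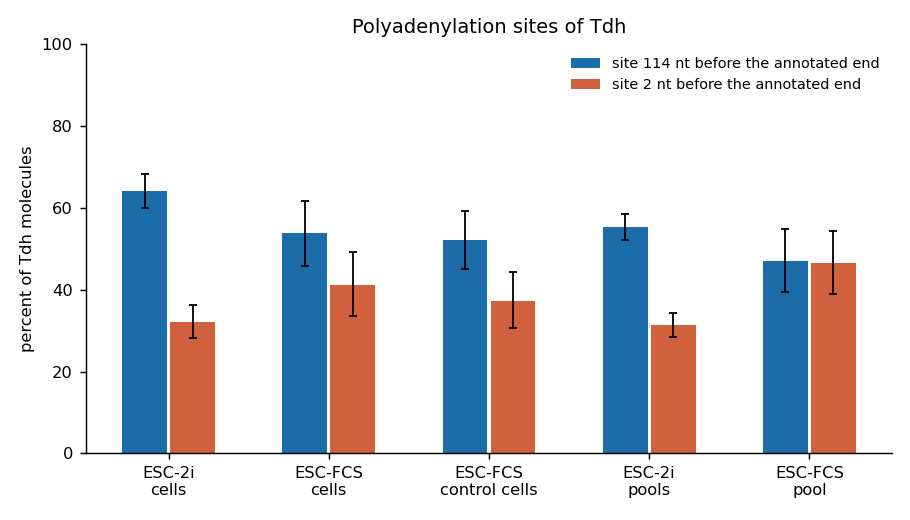
Share of Tdh molecules (y axis, percent) at the sites 114 nt and 2 nt before the annotated end in 5 sets of ESC libraries (x axis). Bars are shares of pooled molecules and error bars exact 95% binomial intervals, and the upstream site ranges from 47.1% in the ESC-FCS pool to 64.2% in ESC-2i cells.

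The 9 other genes of threonine and glycine catabolism were all assessed between ESC-2i and ESC-FCS cells, with 2 higher in each culture, and in the pools 1 was higher in each. Mthfd1, of the folate cycle, was at 3.64 in ESC-2i cells, above ESC-FCS at 1.72 and NSC at 1.45. Shmt2, the mitochondrial serine hydroxymethyltransferase, was at 1.41, 1.76 and 6.91, and Gcsh, a subunit of the glycine cleavage system, at 1.98, 2.51 and 2.44. Unlike Tdh, all 9 had molecules in NSC, where their summed level was 19.1 per 10000 against 13.9 in ESC-2i and 14.6 in ESC-FCS.

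Fbxo15 codes for an F-box protein, the part of an SCF ubiquitin ligase that binds the substrate, and it has long served as a reporter gene of pluripotency. It lies on chromosome 18 (84934782 to 84981473). A molecule was seen in 26 of 33 ESC-2i cells (78.8%), with 0 to 14 per cell and a median of 3, in 19 of 33 ESC-FCS cells (57.6%), with 0 to 5 and a median of 1, and in 25 of 42 control cells (59.5%), with 0 to 8 and a median of 1. Most cells overlapped. By count, the ESC-2i cells of wells H5 and H6 held 14 and 10 molecules, where no other ESC-2i cell exceeded 5. H6 was the deeper cell, with 13583 molecules on genes against 7519 in H5. The level in H5 was 18.6 per 10000, where the highest ESC-FCS cell was at 7.35 and the highest control cell at 12.8.

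The level of Fbxo15 was 2.61 (2.11 to 3.18) in ESC-2i and 1.72 (1.22 to 2.35) in ESC-FCS, a ratio of 1.51 (1.03 to 2.26), and 2.82 (2.17 to 3.61) in the control cells. In the pools it was at 8.51 and 9.01 for ESC-2i and at 2.40 (1.74 to 3.23) for ESC-FCS, 3.65-fold higher in ESC-2i (2.69 to 5.08). In that comparison of pools 51.3% of all 8013 genes assessed differed at least 2-fold, and 3 of the 9 genes of the set did. The ESC-2i pools stood 3.36-fold above the ESC-2i cells (2.72 to 4.20). In a pool, fewer cells with a transcript and fewer transcripts per cell cannot be told apart.

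Fbxo15 was called variable in ESC-2i, with a CV2 of 1.62 against a technical value of 0.425 (adjusted p = 0.00356, chi-square test of Brennecke and colleagues). Without the cell of well H5 the CV2 was 0.937 and Fbxo15 was not called (adjusted p = 1.0, same test). In ESC-FCS its CV2 of 1.34 lay below the technical value of 1.82. The core subunits of the SCF ligase, Skp1a, Cul1 and Rbx1, were seen in every culture, and 0 of 3 differed at least 2-fold between any pair of the 3 cultures in the cells. In the pools 2 of 3 were higher in ESC-FCS, Skp1a at 5.86 against 1.95 and Rbx1 at 1.62 against 0.503. In the cells Skp1a stood at 3.12 per 10000 in ESC-2i, with 4.76 in ESC-FCS and 4.41 in NSC, where Fbxo15 itself was at 0.

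Trap1a codes for the tumour rejection antigen P1A and lies on the plus strand of the X chromosome (139333683 to 139338169). A molecule was seen in 23 of 33 ESC-2i cells, with 0 to 5 per cell and a median of 1, in 16 of 33 ESC-FCS cells, with 0 to 3 and a median of 0, and in 28 of 42 control cells, with 0 to 11 and a median of 1. The level was 1.03 (0.730 to 1.42) in ESC-2i and 1.10 (0.714 to 1.63) in ESC-FCS, so these cultures did not differ beyond counting error (ratio 0.935, 0.550 to 1.62).

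The control cells, which are ESC-FCS cells too, were at 4.44 (3.61 to 5.40), 4.02-fold above the ESC-FCS cells (2.57 to 6.52), and the ESC-FCS pool was at 4.69 (3.74 to 5.80). Control cells and pool were made on the same day, so their values are not independent of each other. Of 8 genes of the set assessed between control cells and ESC-FCS cells, Trap1a was the only 1 at least 2-fold apart, where 25.2% of all genes were, and likewise between the ESC-FCS pool and the ESC-FCS cells, where 33.7% of all genes were. The difference was seen in both batches of control cells, at 5.43 and 2.94, against 0.844 and 1.45 in the ESC-FCS batches. The ESC-2i pools were at 0.563 and 0.505, so in the pools Trap1a was 8.78-fold lower in ESC-2i (6.14 to 12.7). Whether Trap1a passed the 2-fold rule between ESC-2i and ESC-FCS thus depended on which ESC-FCS libraries were used. The single site, 3 nt before the annotated end, held 100% of the 38 molecules of ESC-2i cells and is shown as a comparison with the spread sites of Dppa2, with AATAAA in capitals.
Trap1a, chrX:139338137-139338166, plus strand: tgttaaaAATAAAagtttgacttgcataca

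Ly6a codes for Sca-1, a surface protein with a GPI anchor known as a marker of blood and mesenchymal stem cells, and lies on the minus strand of chromosome 15 (74994877 to 74998031). It was the 1 gene of the set seen in ESC-2i alone, in cells and in pools. Of the 33 ESC-2i cells, 23 had no molecule, 8 had 1, the cell of well F1 had 5 and the cell of well A6 had 14. None of 33 ESC-FCS cells, 42 control cells and 41 NSC cells had a molecule, which allows shares of cells with a UMI of up to 9.09%, 7.14% and 7.32%.

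The level of Ly6a was 0.733 (0.483 to 1.07) in ESC-2i and at most 0.132 in ESC-FCS, at least 5.54-fold higher in ESC-2i. The cell of well A6 held 14 of these 27 molecules. Without it, the level was 0.371 with 13 molecules, a bound of 2.81-fold, and the gene had too few molecules to be assessed by the rule. In the pools it was at 2.25 (1.85 to 2.72) and 0.465 (0.295 to 0.697) for ESC-2i and at 0 for ESC-FCS, with a limit of 0.167, at least 8.03-fold higher in ESC-2i. This bound is 3.01 on the log2 scale, and it was 1.47 without the first ESC-2i pool and 3.75 without the second. The ESC-2i pools differed 1 from the other more for Ly6a and Dppa3 than for Fbxo15 or L1td1, and of both genes the first pool held more. All molecules ended at 1 site 2 nt before the annotated end, 27 of 27 in the cells and 131 of 131 in the pools. The site is shown because every Ly6a value rests on it, with AATAAA in capitals.
Ly6a, chr15:74994879-74994908, minus strand: ctgttgagtccAATAAAccctttgttctcc

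Ly6a was called variable in ESC-2i, with a CV2 of 5.80 against a technical value of 1.96 (adjusted p = 4.25e-04, chi-square test of Brennecke and colleagues). Without the cell of well A6 the normalised mean was 0.393, under the limit of 0.5, and Ly6a could not be tested, with a CV2 of 4.21. This cell had 18211 molecules on genes, rank 3 of the 33 ESC-2i cells, and was at 7.69 Ly6a per 10000. It also held the most Tdh by count, with 32 molecules. The highest Tdh level of an ESC-2i cell, 26.1 per 10000, was in a cell of the other library batch. The summed ESC markers of the cell of well A6 were at 26.4 per 10000, the second lowest of 33 cells. That cell had 3 molecules of neural stem cell markers, 2 of astrocyte and oligodendrocyte markers and 1 each of neuron and primitive endoderm markers. It had none of epiblast and mesoderm, trophectoderm or fibroblast markers. Ly6e, a relative, was seen in all sets, with 0.896 per 10000 in ESC-2i cells against 0.926 in ESC-FCS and 0.724 in NSC, and was the only other Ly6 gene with enough molecules to be assessed in the cells, of 14 listed and 9 counted.

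Across the set, 8 genes could be tested for variation between ESC-2i cells, and 3 were called (Dppa3, Fbxo15 and Ly6a), against 0.608% of all 3616 genes tested. The paper had already named Stella (Dppa3) and Sca-1 (Ly6a) as highly variable in the same ESC-2i cells with this test. The genes were chosen with earlier results of these data known, so the 3 calls are no independent comparison with all genes. Each call rested on a single cell, that of well H5 for Dppa3 and Fbxo15 and that of well A6 for Ly6a. Without these cells Dppa3 and Ly6a did not reach the mean needed for testing and Fbxo15 was not called. The technical values of Dppa4, Gdf3 and Trap1a were above their CV2, and Tdh had a CV2 of 0.168 against 0.102. In ESC-FCS, 0 of 7 tested genes were called and 0 had an unadjusted p below 0.05 by the test of Brennecke and colleagues, where 3.36% of all 2026 genes were called. In the control cells 0 of 8 were called, and 0 at an unadjusted p below 0.05, where 6.15% of all genes were called. In NSC none of the 10 genes was abundant enough to be tested. On counts simulated with Poisson noise the test made few calls in ESC-2i where no variance had been added, but it made such calls in the shallower sets. Variance was added only to genes with higher means than Dppa3 and Ly6a. The simulation therefore held no variable gene as sparse as these. Whether the variance of any gene differed between ESC-2i and ESC-FCS was not tested.

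**Figure D5:**
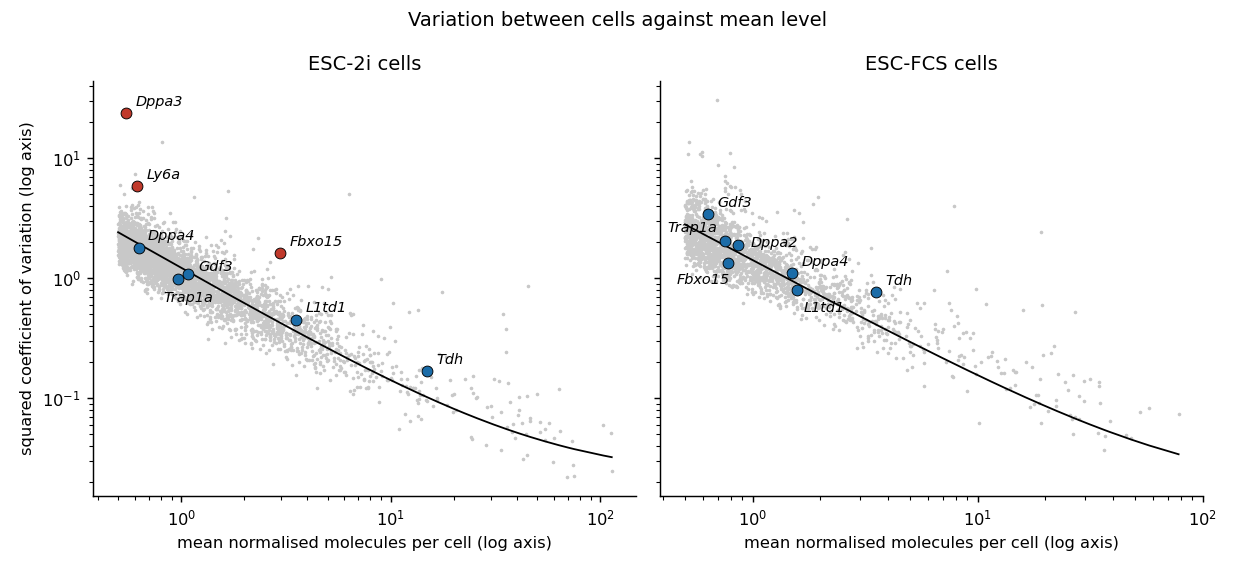
Squared coefficient of variation between cells (y axis, log scale) against the mean of normalised molecules per cell (x axis, log scale) in ESC-2i and ESC-FCS. Grey points are all genes tested, the line is the technical noise fitted on spike-ins, and large points are genes of the set, in red where called variable (Dppa3, Fbxo15 and Ly6a in ESC-2i). Dppa3 stands at 23.8 in ESC-2i and no gene of the set is called in ESC-FCS.

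In a single ESC, a median of 5 of the 10 genes had a molecule, with a range of 2 to 9 in ESC-2i, of 0 to 7 in ESC-FCS cells and of 0 to 8 in control cells, while 40 of 41 NSC cells had none. The genes with at least 50 molecules were set against each other across the cells of a culture. In ESC-2i, Pearson's r was 0.26 between L1td1 and Fbxo15 (Spearman's rho 0.35), -0.24 between L1td1 and Tdh (rho -0.22) and -0.30 between Tdh and Fbxo15 (rho -0.45). The 33 cells are of 1 culture and share its depth and library batches. In ESC-FCS, r was 0.10 between Dppa4 and L1td1, 0.02 between Dppa4 and Tdh and 0.01 between L1td1 and Tdh. In the control cells the largest r was 0.32, between Dppa4 and Tdh (rho 0.29). The pairs given for ESC-2i were nearer to 0 there, with -0.08 between L1td1 and Fbxo15, 0.03 between L1td1 and Tdh and 0.08 between Tdh and Fbxo15. These values describe sparse counts and no test was made of them.

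Over 11 library units (both batches of each set of cells and the pools) the pattern of Tdh was most like that of Lrrc34 (Pearson's r = 0.992 on log2 of the level plus 0.1), Upp1 (0.990) and Acot9 (0.985). Fbxo15 was most like Nanog (0.992), Msh6 (0.987) and Gdf3 (0.984), and Gdf3 most like Nanog (0.992), Fbxo15 (0.984) and Msh6 (0.983). L1td1 was most like Trim25 (0.981), Tdh (0.981) and Zfp990 (0.980). The values share the pair of NSC units, where these genes of the set were at 0, and the units are not independent cultures.

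The other genes associated with ESC, 22 by a list that leaves out the 10, had 20 assessed between ESC-2i and ESC-FCS, with 5 higher in ESC-2i and 4 higher in ESC-FCS in the cells, and 6 and 8 in the pools. Against NSC, 16 of 17 were higher in ESC-2i and 16 of 16 in ESC-FCS. For the set, the 7 of 7 in each was fixed by the rule, since no assessed gene had a molecule in NSC. Nanog was at 4.67 in ESC-2i and 3.00 in ESC-FCS cells and, like Fbxo15 and Gdf3, higher in the ESC-2i pools, at 15.0 against 6.42 in the ESC-FCS pool. Tfcp2l1, a transcription factor of naive pluripotency, was at 8.63 and 2.74 in the cells and 10.3 and 3.46 in the pools. Esrrb was at 8.14 and 6.22 in the cells and at 4.20 and 7.03 in the pools.

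Of 7 genes of DNA methylation listed around Dppa3, 6 were assessed between ESC-2i and ESC-FCS, with 1 higher in ESC-2i and 2 higher in ESC-FCS in the cells, and 0 and 3 in the pools. Uhrf1, the protein that Dppa3 binds, was at 4.24 in ESC-2i, with 1.54 for ESC-FCS cells and 3.14 for the control cells. Dnmt3b, a de novo DNA methyltransferase, was at 0.570 and 2.16 and Dnmt1, the maintenance enzyme, at 1.68 and 2.12. Of 17 genes listed for the 2-cell stage of the embryo, some of which Dppa2 and Dppa4 are known to switch on, the 12 that were among the genes counted had 0 molecules in all ESC-2i, ESC-FCS and control cells. The ESC-2i pools held 350 molecules of these genes, 149 of them of Zscan4e, and the ESC-FCS pool held 0.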

How the data were processed

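The deposited files hold counts of molecules (UMIs) and reads per polyadenylation site and cell, and a table of counts per gene. The authors aligned the reads to GRCm38 with ERCC spike-in sequences, kept reads that aligned to 1 place, joined UMIs within 1 mismatch of each other for the same gene, collapsed ends lying within 12 nt, and assigned sites up to 20 kb downstream to a gene, without normalization. The submitters' processing notes name HTSeq and R 3.0.2.

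Cells with at least 1000 molecules on genes were used. Gene counts equal the sums of site counts in all but 4 of the entries of the 107 cells tabulated for the 3 cultures. The control cells and pools, which are not in that table, were summed from the site tables in the same way. Replicate numbers only name cells.

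Exact Poisson intervals (levels), exact binomial intervals (ratios) and Clopper-Pearson intervals (shares) are at 95% and cover counting error only. Limits at 0 and folds given as at least put 3 in place of 0. Such folds leave out the counting error of the other culture. Since sets of cells have 151877 to 368362 molecules, a gene below about 1 molecule per 10000 rests on few molecules. The test of Brennecke and colleagues was coded anew and tested on simulated data (noise fit on ERCC transcripts, margin of 0.25 on CV2, normalised mean above 0.5, Benjamini-Hochberg adjusted p below 0.1). For shares at equal depth, each cell was thinned to 2000 molecules, leaving out shallower cells. TMM factors of edgeR 4.0.16 (R 4.3.3) were an alternative scaling. All else ran in Python 3.11.15 (scipy 1.17.1, numpy 2.4.6, matplotlib 3.10.9, pandas 2.3.3).

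All 10 genes are named, with the 3 genes of highest Pearson's r over library units for the 4 genes of the set with the most molecules, and up to 4 genes with the most molecules of each further list. Other names are markers. The genes, the lists and the tests were chosen with earlier results of these data known. The limit of 5000 nt, the results without the cells of wells H5 and A6, the use of control cells in place of ESC-FCS and spike-in totals as size factors were added after the values had been seen. Protein sequences were not analysed here.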

Additional observations from a re-analysis of the deposited data

How the results depend on the processing

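Of the counts of genes past a threshold and the medians reported, 94 values under an alternative stayed within 1.5 times the value reported, or within its spread, and 19 did not, and no named value turned its direction where it had been called. For counts of genes, this tally compares their number and not which genes they are. It includes the counts of variable genes in NSC, which could hardly differ from 0, since NSC held only 1 molecule of the set. Between ESC-2i and ESC-FCS, 4 genes were at least 2-fold apart, 3 in the first library batch (Dppa2, Dppa4 and Tdh) and 1 in the second (Dppa4), 2 with a minimum of 50 molecules (Dppa4 and Tdh), 6 per spike-in molecule (Dppa2, Dppa3, Dppa4, Gdf3 and Trap1a lower and Ly6a higher in ESC-2i, Tdh not), 5 without the cell of well H5 (with Dppa3 added), 3 without the cell of well A6 (Ly6a not assessed), and 5 with the control cells in place of the ESC-FCS cells, where Dppa3 and Trap1a passed and Tdh did not. The pass of Dppa3 without the cell of well H5 rested on molecules far downstream of the gene. Against NSC, the 7 genes of ESC-2i became 3 in the first batch and 3 with at least 50 molecules. The 7 of ESC-FCS became 4 in the first batch, 3 in the second and 3 with at least 50 molecules. Fewer genes reached the minimum in each case. All that did passed, which was fixed by the rule, since they had no molecule in NSC. In the pools 3 genes passed, and 4 without either ESC-2i pool.

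The 3 genes called variable in ESC-2i became 1 with all spike-in species (Dppa3), 1 in the first batch (Ly6a) and 1 to 3 with each cell left out in turn, where Dppa3 without the cell of well H5 and Ly6a without that of A6 could not be tested. Fbxo15 was also lost with a margin of 0.5. In ESC-FCS, 1 gene was called with no margin (Tdh), 1 with spike-in size factors (Tdh) and 1 in the first batch (Gdf3), against 0. In the control cells, 1 was called with no margin, 3 with spike-in size factors (Dppa3, L1td1 and Tdh), 2 in cells with at least 2000 molecules, 1 in the first batch and 0 to 2 with each cell left out in turn, the 2 (Dppa3 and Gdf3) without the cell of well F4. The cause was not tested. The median share of ESC-2i cells with a molecule of a gene of the set was 56.1%, and 14.6% with cells thinned to 2000 molecules. No paired analysis was possible because the replicate numbers of cells follow the order of the samples and pair nothing.

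Low counts limit Dppa3, Dppa5a, Dppa2 and Ly6a most, each with 31 molecules or fewer in ESC-2i and ESC-FCS. With 1 culture per condition, differences between cultures and differences between libraries cannot be told apart. The pools and control cells were prepared apart and had fewer reads per molecule, which moves with the differences between cells and pools and whose part in them was not tested.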
